A study of Mus musculus with 6 samples.

Results

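The Gq class of heterotrimeric G proteins has 4 α subunits in the mouse, encoded by Gnaq (Gαq), Gna11 (Gα11), Gna14 (Gα14) and Gna15 (Gα15), and these 4 genes, of 56953 in the table, are described here. They were chosen by name, from the Ensembl identifiers that the GENCODE mouse annotation assigns to them. Bulk RNA was sequenced from mouse embryonic fibroblasts (MEFs), cultured connective tissue cells of embryonic origin, in 3 WT libraries and 3 labelled GαqKO, all of untreated cells in serum-containing medium. The study asked how fibroblasts without Gαq differ from wild-type fibroblasts, and it describes the line labelled GαqKO as a knockout of both Gαq and Gα11. The labels and methods used here do not say which exons were deleted, whether each line came from 1 embryo or 1 clone, or whether the lines share a strain background, so that genotype and cell line cannot be told apart.

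A receptor coupled to the Gq class makes the α subunit exchange GDP for GTP, and the loaded subunit activates phospholipase C-β, which splits a membrane phospholipid into inositol trisphosphate (IP3) and diacylglycerol. The first releases calcium from intracellular stores through IP3 receptors and the second activates protein kinase C, while a separate branch runs through guanine nucleotide exchange factors. Gαq and Gα11 are made in most tissues and can stand in for each other at many receptors, whereas Gα14 is found in fewer tissues and Gα15 is known mainly from blood cells.

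The carboxy-terminal tail of a Gα subunit is the part that docks into the receptor, so the last 60 bases of each coding sequence, stop codon included, are shown to compare the members there. They were read 5′ to 3′ from the GRCm39 genome along the canonical GENCODE transcripts. Capitals mark bases that differ from Gnaq at the same distance from the end.
Gnaq: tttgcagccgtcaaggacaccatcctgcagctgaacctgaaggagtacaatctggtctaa
Gna11: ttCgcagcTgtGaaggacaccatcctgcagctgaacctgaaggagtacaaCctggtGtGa
Gna14: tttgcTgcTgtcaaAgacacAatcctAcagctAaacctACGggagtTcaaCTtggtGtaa
Gna15: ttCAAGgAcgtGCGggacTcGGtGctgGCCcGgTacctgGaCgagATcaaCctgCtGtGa
Gna11 differed from Gnaq at 6 of these bases, Gna14 at 13 and Gna15 at 25. Over the whole coding sequence the order was the same, with 80.8% identity of Gna11 to Gnaq (both 1080 bases), 76.6% for Gna14 (1068 bases) and 65.6% for Gna15 (1125 bases). The longest run shared by the canonical transcripts of Gnaq and Gna11 was 38 bases, and no pair of members shared a run of 50 bases, while the reads were 150 bases long.

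The table holds normalized counts, which are read counts per gene divided by 1 size factor per library. These summed to between 11392429 and 11483486 per library, and the reads behind them, which could be recovered in 5 of the 6 libraries, numbered between 9853000 and 12229175. Against markers of their labelled cell type, all 8 fibroblast markers were detected and summed to between 84198 and 89942 normalized counts in WT and between 60834 and 63969 in the libraries labelled GαqKO. Of the 8, 5 were lower and 3 higher at an adjusted p under 0.05 by limma, where 34.1% and 31.8% of all genes tested were. Col1a1, a chain of type I collagen, fell from 16671 ± 1168 to 5774 ± 272 normalized counts (SD, n = 3 each, log2 difference -1.53, limma adjusted p = 2.11e-11). Pdgfra and Thy1 were near 0 in WT at 19.6 ± 2.2 and 0.70 ± 1.2 and at 2319.7 ± 42.0 and 64.9 ± 10.1 in the libraries labelled GαqKO (SD, n = 3 each). Thy1 reached 10 normalized counts, the minimum for testing, only in the libraries labelled GαqKO. The 4 epithelial markers summed to between 492.5 and 507.5 in WT and to between 9.06 and 20.8 in the libraries labelled GαqKO. In WT nearly all of it was Krt14 and Cdh1, and in the libraries labelled GαqKO the largest parts were Cdh1 at 8.0 ± 2.7 and Epcam at 4.6 ± 3.0 (SD, n = 3). The part of these differences between the lines in the results below was not tested.

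The gene named in the label, Gnaq (ENSMUSG00000024639.6), lies on the plus strand at chr19:16110027-16365882 of GRCm39. WT replicates 1, 2 and 3 held 1665, 1660 and 1747 normalized counts of Gnaq, and the libraries labelled GαqKO held 1960, 1931 and 1888. Every library labelled GαqKO was thus above every WT library, so the transcript was not lower. The study reported the lack of Gαq protein in GαqKO MEFs by Western blot and immunofluorescence, which is a different measure from transcript level. The means were 1690.8 ± 48.5 in WT and 1926.3 ± 36.0 in the libraries labelled GαqKO (SD, n = 3 each), or 113.9% of the WT mean. On the scale of log2(normalized count + 1) the difference was 0.19 (SE 0.045, 95% interval 0.09 to 0.28), with an adjusted p of 0.00212 by limma over all 14096 genes tested. A larger rise was fitted for 36.4% of the genes tested. The counts cover the whole gene and do not show whether the transcript is intact or still carries the deleted part. In these bulk samples a change in the number of cells of a type and a change in the RNA per cell cannot be told apart.

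Gna11 (ENSMUSG00000034781.6), which encodes the closest relative of Gαq, is on the minus strand at chr10:81364558-81381060. It held 2141, 2180 and 2123 normalized counts in WT and 472.3, 463.7 and 418.9 in the libraries labelled GαqKO. The groups were far from overlapping, since the highest of the latter lay well below the lowest WT value. The mean fell from 2147.9 ± 29.0 to 451.6 ± 28.7 (SD, n = 3 each), which left 21.0% of the WT level. The log2 difference was -2.25 (SE 0.057, 95% interval -2.37 to -2.13), with a limma adjusted p of 9.16e-13. A larger fall was fitted for 5.11% of the genes tested. Gna11 transcript therefore remained measurable in the libraries labelled GαqKO, at 503 and 401 recovered reads in replicates 1 and 2. As for Gnaq, whole-gene counts do not show whether the remaining Gna11 transcript is intact. None of the 3401 stretches of 50 bases in the canonical transcript of Gna11 occurs in a transcript of another gene, against 18 of 6818 for Gnaq, 0 of 3386 for Gna14 and 45 of 4153 for Gna15.

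Gna14 (ENSMUSG00000024697.5) is on the plus strand at chr19:16412981-16588184, and its product couples to many of the receptors that use Gαq. In WT it was close to absent, at 6.3, 0 and 3.1 normalized counts, and in the libraries labelled GαqKO it stood at 57.3, 46.2 and 56.4. The groups did not overlap, although the transcript stayed low beside Gnaq and Gna11 in both. Mean levels were 3.1 ± 3.1 and 53.3 ± 6.1 (SD, n = 3 each), a log2 difference of 4.13 (SE 0.573, 95% interval 2.89 to 5.37, limma adjusted p = 2.35e-05). Its size depended on the low WT values, with 3.32 without WT replicate 2, 4.75 without WT replicate 1 and 2.92 with a pseudocount of 5. Because so few reads lay behind the WT mean, the recovered reads were also compared. They were 9 in the 3 WT libraries and 101 in the 2 libraries labelled GαqKO with recovered reads, a ratio of 17.3 after allowing for library size, with a 95% counting interval of 8.74 to 38.9. A larger rise was fitted for 1.33% of the genes tested.

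Gna15 (ENSMUSG00000034792.9), on the minus strand at chr10:81336101-81360255, was near the limit of detection everywhere. It held 9.4, 0.97 and 3.1 normalized counts in WT and 4.7, 3.5 and 5.0 in the libraries labelled GαqKO. The groups overlapped, the gene was under the minimum for testing (10 normalized counts in at least 3 libraries), and an exact two-sided permutation test of its 3 against 3 values gave p = 1, where 0.1 is the smallest value possible. The recovered reads, 13 and 8, gave a ratio of 0.947 with a 95% counting interval of 0.340 to 2.46, so that a change within that range was not detectable at this depth. The haematopoietic markers, which mark the cells Gα15 is best known from, summed to between 107.6 and 117.1 normalized counts in WT and between 69.5 and 104.1 in the libraries labelled GαqKO. Most of that was Cd68, and Itgam was listed at 0 in every library.

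Of the 4 members, 3 were tested and all 3 had an adjusted p under 0.05, 2 higher and 1 lower. Among all genes tested 65.8% did so, 31.8% higher and 34.1% lower. Adding the study's fold threshold, a log2 difference over 1 or under -1, left Gna14 above and Gna11 below, against 10.2% and 10.5% of all genes tested. Gna14 reached the minimum for testing only in the libraries labelled GαqKO, the group where it was higher, so these counts depend on the filter. The groups did not overlap for the same 3 members, as for 69.6% of all genes (33.8% higher and 35.8% lower). The median log2 difference of the members tested was 0.19 and that of all genes -0.012. The plot of member levels by library shows these 4 patterns on their own scales.

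**Figure D1:**
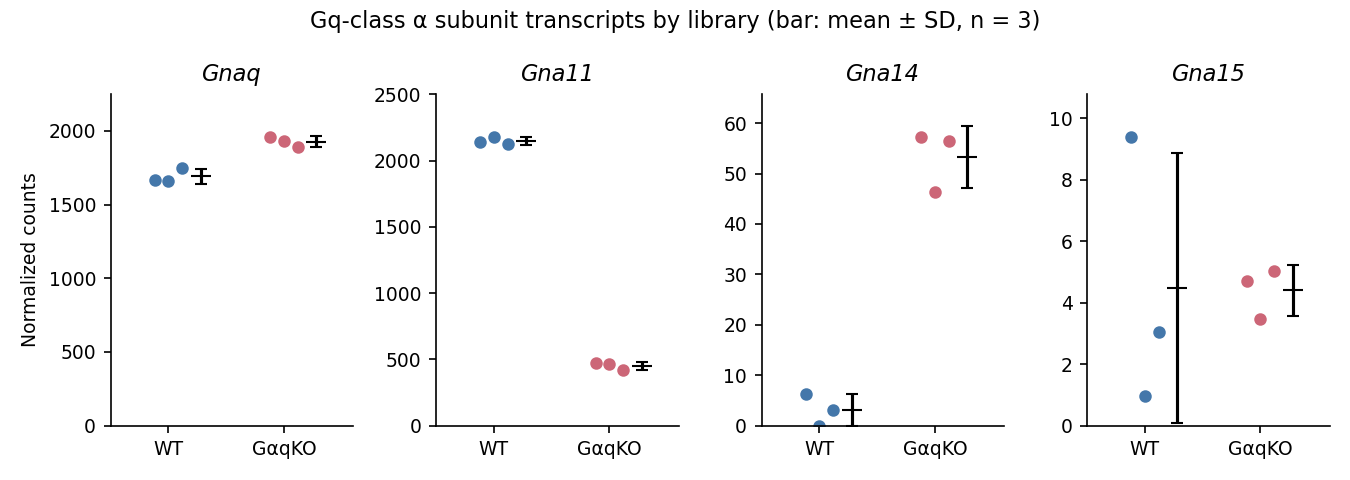
Normalized counts of the 4 Gq-class genes in each library (points), with the mean and SD of the 3 libraries of each group beside them. Every axis starts at 0 and has its own range. Gnaq was slightly higher in the libraries labelled GαqKO, Gna11 fell to 21.0% of the WT mean, Gna14 rose from near 0, and Gna15 overlapped.

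Taking the 4 members as 1 pool, its make-up turned over between the lines. Gna11 was the larger part in WT, with 56.0%, 56.8% and 54.8% of the normalized counts of the pool in replicates 1, 2 and 3, and Gnaq made up 43.6%, 43.2% and 45.1%. In the libraries labelled GαqKO Gnaq made up 78.6%, 79.0% and 79.7%, and Gna11 18.9%, 19.0% and 17.7%. The ratio of Gnaq to Gna11 was between 0.762 and 0.823 in WT and between 4.15 and 4.51 in the libraries labelled GαqKO. Gna14 went from 0.081% ± 0.082 to 2.19% ± 0.26 of the pool, and Gna15 from 0.117% ± 0.115 to 0.181% ± 0.036 (SD, n = 3 each). For the 5 libraries with recovered reads the 95% Wilson interval of the Gna11 share reached at most 20.7% in the libraries labelled GαqKO and went down to 53.2% at the lowest in WT. These intervals cover counting error only.

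A longer transcript gives more reads per molecule, so levels were also set per kilobase (kb) of merged exons, which are 7.41 kb for Gnaq, 4.54 kb for Gna11, 3.58 kb for Gna14 and 4.59 kb for Gna15. On that scale Gna11 was 473.1 ± 6.4 and Gnaq 228.2 ± 6.5 in WT, and Gna11 99.5 ± 6.3 and Gnaq 260.0 ± 4.9 in the libraries labelled GαqKO (SD, n = 3 each). Gna11 thus took 67.3% ± 0.9 of the WT pool per kb and 26.5% ± 1.0 of the other, while Gnaq took 32.5% ± 0.9 and 69.3% ± 0.7. Gna14 reached 3.97% ± 0.47 in the libraries labelled GαqKO. Per kb of the canonical transcript alone, the Gnaq share was 28.3% in WT and 65.6% in the libraries labelled GαqKO. The order of Gnaq and Gna11 therefore switched on every scale, with Gna11 ahead in WT and Gnaq ahead in the libraries labelled GαqKO.

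The pool as a whole was smaller in the libraries labelled GαqKO. It summed to 3846.2 ± 27.5 normalized counts in WT and 2435.6 ± 63.2 in those libraries (SD, n = 3 each), which is 63.3% of WT, and the highest of the latter, 2494, was below the lowest WT library, 3822. Per kb of merged exons the totals were 703.2 ± 2.7 and 375.4 ± 10.8, or 53.4% of WT, and per kb of the canonical transcript the remainder was 49.2%. The mean of the pool dropped by 1410.6 normalized counts, where Gna11 dropped by 1696.3 and Gnaq and Gna14 gained 235.5 and 50.2. The sums are descriptions, were not tested and count transcript whether or not it is intact. Each member has 7 exons in its canonical transcript with a median of 155 bases and 1 long exon, which is 77.4% of the transcript for Gnaq, 65.6% for Gna11, 43.1% for Gna14 and 67.6% for Gna15. The authors aligned with Rbowtie2, which does not split a read across an intron, and the part of this in the levels of the members relative to each other was not tested.

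**Figure D2:**
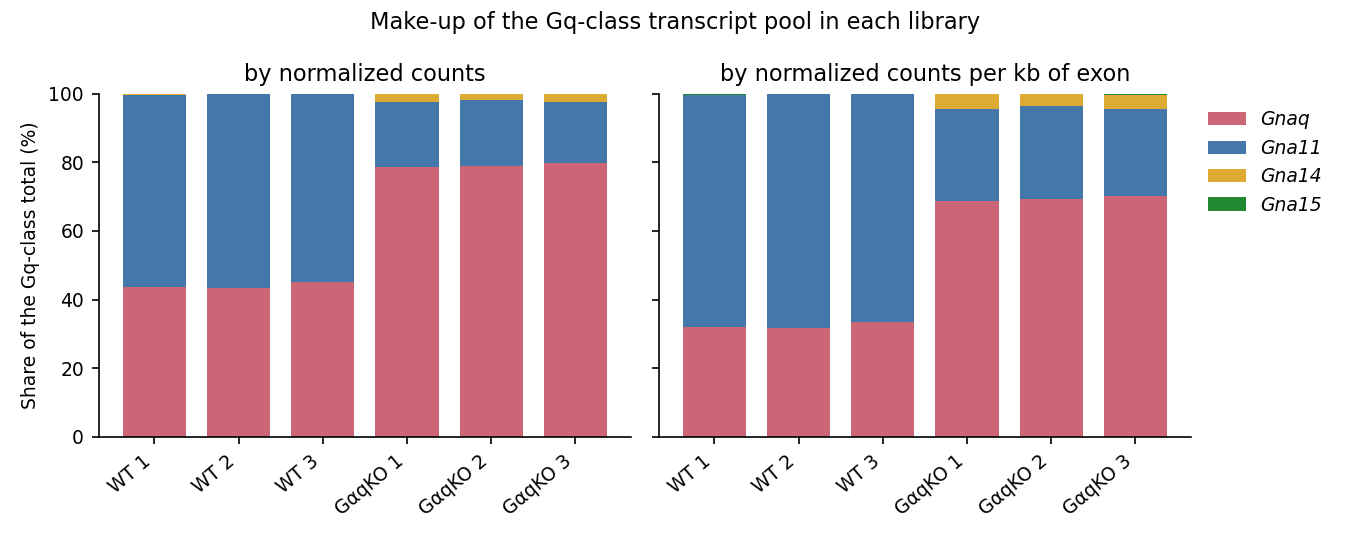
Share of each Gq-class gene in the pool of 4, in percent, for each of the 6 libraries, by normalized counts (left) and by normalized counts per kb of merged exons (right). Gna11 is the largest part in all 3 WT libraries and Gnaq in all 3 libraries labelled GαqKO on both scales.

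The 16 Gα genes place the class among its relatives, the Gs class that activates adenylyl cyclase, the Gi class that inhibits it and the G12 class. Per kb of merged exons, the Gq class made up 21.6% ± 0.4 of the Gα total in WT and 12.3% ± 0.5 in the libraries labelled GαqKO (SD, n = 3 each). Gs went from 5.26% ± 0.17 to 13.1% ± 1.0, the Gi class stood at 64.2% ± 0.8 and 64.6% ± 1.1, and G12 at 8.94% ± 0.51 and 9.99% ± 0.41. The sum of all 16 was 3258.7 ± 54.6 and 3063.0 ± 47.0 per kb. Among the 16, Gna11 ranked 3rd in WT and 7th in the libraries labelled GαqKO, Gnaq 5th in both, and Gna14 12th and 9th. In WT Gna13 (251.9 ± 10.9) and Gnaq (228.2 ± 6.5) were neighbours in this order, and in the libraries labelled GαqKO their values of 263.2 ± 15.6 and 260.0 ± 4.9 lay within the spread between replicates.

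Of the 12 Gα genes outside the class, 9 were tested, 2 were higher past both thresholds and 1 was lower, against 10.2% and 10.5% of all genes tested. Gnas, which encodes Gαs, rose by 1.23 on the log2 scale (SE 0.061, limma adjusted p = 6.60e-10), and Gnao1, which encodes the Gαo of the Gi class, by 2.08 (SE 0.072, limma adjusted p = 1.74e-11). Gnai1, also of the Gi class, went from 866.5 ± 3.4 normalized counts to 4.7 ± 1.8 (SD, n = 3 each, log2 difference -7.29, limma adjusted p = 3.69e-12). The median log2 difference of the 9 was 0.13, and Gnai1 reached 10 normalized counts, the minimum for testing, only in WT.

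**Figure D3:**
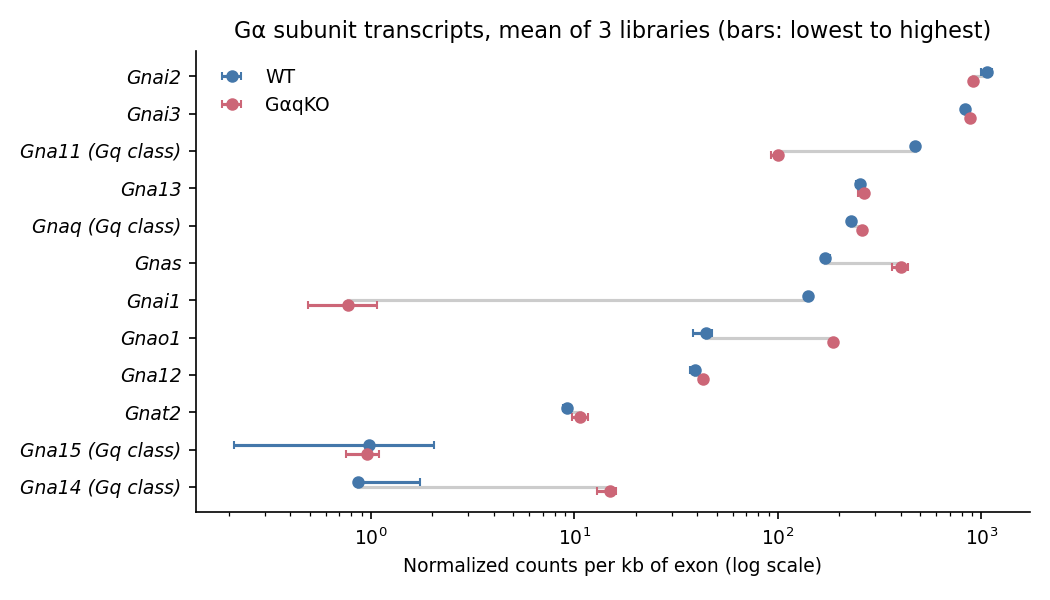
Normalized counts per kb of merged exons, on a log axis, for the 4 Gq-class genes and the Gα genes above 5 per kb in either group. Points are means of 3 libraries and bars run from the lowest to the highest library (a lowest value of 0, as for Gna14 in WT, cannot be drawn and its bar stops at the mean). Gna11 moved left past Gnaq and Gna14 moved right, while Gnaq stayed close to its WT level.

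The 4 genes lie as tandem pairs, Gna15 and Gna11 on the minus strand of chromosome 10 with 4.3 kb between them, and Gnaq and Gna14 on the plus strand of chromosome 19 with 47.1 kb between them. The pairs moved apart internally, since the member that changed most in each (Gna11, Gna14) lay beside one that was low in both groups or differed by 0.19. None of the neighbouring protein-coding genes tested, up to the second on each side of a pair, passed the fold threshold. Of all genes tested, 20.7% passed both thresholds and 65.8% had an adjusted p under 0.05. Next to the chromosome 10 pair, Ncln, which encodes an endoplasmic reticulum membrane protein, differed by -0.20 (limma adjusted p = 7.85e-04), and on the other side the transcriptional corepressor genes Tle5 and Tle2 by -0.22 and -0.33 (0.00204 and 0.00841). S1pr4 was under the minimum for testing. Next to the chromosome 19 pair, Psat1, an enzyme of serine synthesis, differed by 0.50 (limma adjusted p = 1.54e-07), Vps13a by -0.22 (0.0368) and Cep78 by 0.07 (0.575). Foxb2 was listed at 0 in every library. Annotated genes overlapping Gnaq and Gna14 that are in the table were at 0 in every library, the highest value of any overlapping Gna15 was 1.04 normalized counts, and no gene overlaps Gna11.

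**Figure D4:**
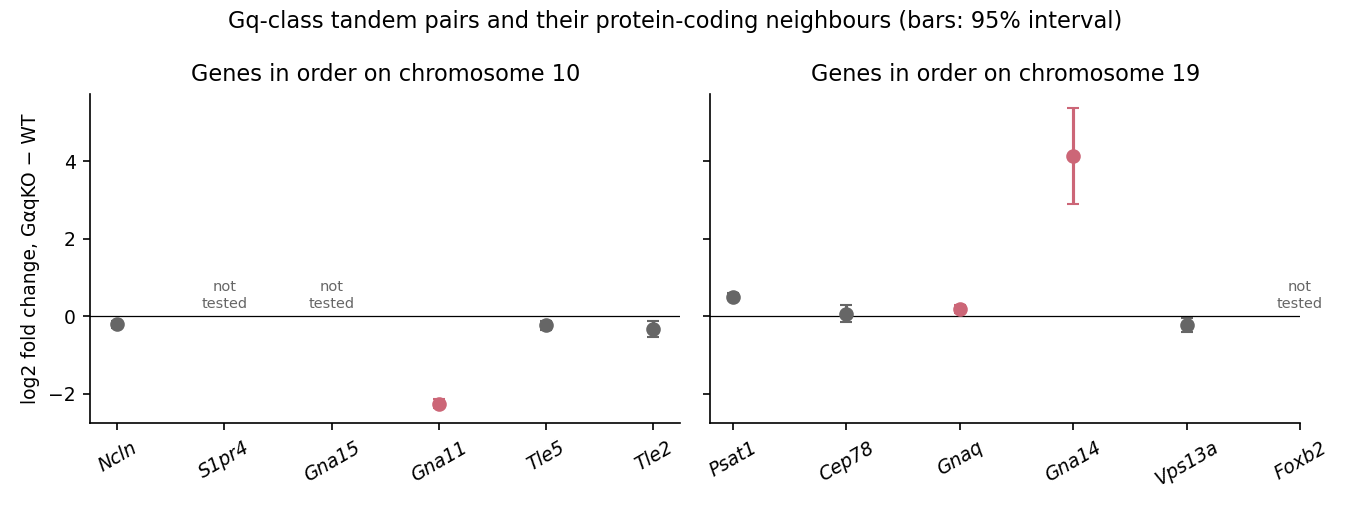
log2 difference between libraries labelled GαqKO and WT (y axis, points, with 95% intervals from limma) for the Gq-class genes (red) and the neighbouring protein-coding genes (grey), in their order along chromosomes 10 and 19. Gna11 at -2.25 and Gna14 at 4.13 stand apart from their neighbours, which lie between -0.33 and 0.50.

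The stretch before each gene is shown to compare the members there. The 200 bases upstream of each GENCODE gene start were read from GRCm39, 5′ to 3′ on the strand of the gene, with capitals marking GC boxes (GGGCGG or CCGCCC, the motif bound by Sp1 and related factors, searched as both strands).
Gnaq: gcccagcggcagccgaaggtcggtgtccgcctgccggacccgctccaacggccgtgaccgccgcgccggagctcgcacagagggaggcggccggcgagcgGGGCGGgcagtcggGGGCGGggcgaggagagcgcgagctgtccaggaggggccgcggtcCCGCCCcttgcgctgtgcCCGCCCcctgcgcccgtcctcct
Gna11: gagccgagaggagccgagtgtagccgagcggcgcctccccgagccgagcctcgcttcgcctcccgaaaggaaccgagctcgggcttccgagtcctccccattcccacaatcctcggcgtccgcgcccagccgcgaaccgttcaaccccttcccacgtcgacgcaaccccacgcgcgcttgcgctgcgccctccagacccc
Gna14: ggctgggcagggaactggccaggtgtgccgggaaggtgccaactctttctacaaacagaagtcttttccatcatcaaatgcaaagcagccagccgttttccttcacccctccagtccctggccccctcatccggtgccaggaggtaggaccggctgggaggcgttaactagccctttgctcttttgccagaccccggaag
Gna15: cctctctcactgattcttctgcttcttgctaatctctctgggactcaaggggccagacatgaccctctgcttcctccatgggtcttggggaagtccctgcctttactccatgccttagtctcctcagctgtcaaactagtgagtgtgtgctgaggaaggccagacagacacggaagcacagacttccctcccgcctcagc
These are chr19:16109827-16110026 for Gnaq, chr10:81381061-81381260 for Gna11, chr19:16412781-16412980 for Gna14 and chr10:81360256-81360455 for Gna15. The members with high levels in WT had CpG-rich stretches, with 30 CpG in Gnaq and 28 in Gna11, counts that 1.06% and 1.71% of the 21757 protein-coding promoters of this length reach or exceed. Gna14 had 6 CpG and Gna15 had 2, beside a median of 5 over all promoters. The GC content was 80% for Gnaq, 71% for Gna11, 58.5% for Gna14 and 55% for Gna15, with a median of 52%. Gnaq held 4 GC boxes and the other members none, where 28.6% of all promoters held at least 1. The counts and matches describe the sequence only, and their part in the transcript levels was not tested.

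The partners of the class are given in the order of the pathway. Of 28 receptors that signal through the Gq class, 14 were tested, 6 were higher past both thresholds and 4 lower, where 10.2% and 10.5% of all genes tested were, and the median log2 difference was 0.43. The higher ones were Ptgfr (prostaglandin F2α) at 6.54, S1pr3 (sphingosine 1-phosphate) at 6.36, P2ry2 (extracellular nucleotides) at 4.85, Htr2a (serotonin) at 2.76, and the bradykinin receptors Bdkrb1 at 1.93 and Bdkrb2 at 1.31. Lower were F2rl1 (protease-activated) at -6.54, Hrh1 (histamine) at -4.19, Adra1b (adrenergic) at -2.35 and Lpar2 (lysophosphatidic acid) at -1.19. Ptgfr, S1pr3, P2ry2, Htr2a and Bdkrb1 reached the minimum for testing only in the libraries labelled GαqKO. F2rl1, Hrh1 and Adra1b reached it only in WT. The counts of higher and lower receptors thus depend on the filter and are descriptions. F2r, the thrombin receptor, fell from 5134.2 ± 254.5 to 2567.0 ± 100.3 normalized counts (SD, n = 3 each), just short of the fold threshold, which it passed without WT replicate 2 (-1.01), WT replicate 3 (-1.03) or GαqKO replicate 1 (-1.03).

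Ric8a, which encodes the chaperone that folds Gαq-class subunits, held 490.1 ± 60.0 and 479.3 ± 24.0 normalized counts (SD, n = 3 each), with overlapping groups (log2 difference -0.03, 95% interval -0.22 to 0.16, limma adjusted p = 0.808). Of the 7 effectors 6 were tested, and the phospholipases C-β did not move together. Plcb1 rose from 4.1 ± 2.8 to 176.4 ± 30.7 normalized counts (log2 difference 5.31), Plcb4 fell from 164.0 ± 15.5 to 63.6 ± 3.1 (-1.35, SD and n = 3 as above), Plcb3 fell by 0.75 on the log2 scale without reaching the fold threshold, and Plcb2 was under the minimum for testing. Of the exchange factors, Kalrn rose by 1.01 and Trio by 0.38, and Arhgef25 had a log2 difference of -0.09 (limma adjusted p = 0.217). Kalrn was under the fold threshold without WT replicate 2 (0.94) and with a pseudocount of 5 (0.98). Plcb1 reached the minimum for testing only in the libraries labelled GαqKO.

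Of the 8 regulators that switch the class off or uncouple its receptors, 6 were tested, and by limma 4 were higher past both thresholds and 0 were lower. Of all genes tested, 10.2% were higher and 10.5% lower past both thresholds. Rgs3 had a log2 difference of -0.43 (limma adjusted p = 0.0923, or 0.00190 with no trend in the prior spread). The higher ones were the GTPase activators Rgs16, from 0.65 ± 1.1 to 166.2 ± 13.6 normalized counts, Rgs4, from 0.35 ± 0.60 to 14.2 ± 4.5, Rgs2, from 8.1 ± 1.6 to 22.4 ± 5.2, and Rgs19, from 917.9 ± 77.3 to 1908.2 ± 39.7 (SD, n = 3 each). Rgs16, Rgs4 and Rgs2 reached the minimum for testing only in the libraries labelled GαqKO, the group where they were higher. The count of higher regulators thus depends on the filter. Rgs19 was at 0.99 on the log2 scale, under the fold threshold, without WT replicate 3. Among the IP3 receptors Itpr2 rose by 3.12 and Itpr1 by 0.48 on the log2 scale, and Itpr3 had -0.24 (limma adjusted p = 0.0228). Without WT replicate 3 the Itpr3 difference was -0.13 with an adjusted p of 0.0969, and its adjusted p was also over 0.05 without any single library labelled GαqKO (0.0541 to 0.0603), by DESeq2 on 5 libraries (0.109) and by limma when the prior spread had no trend (0.101).

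**Figure D5:**
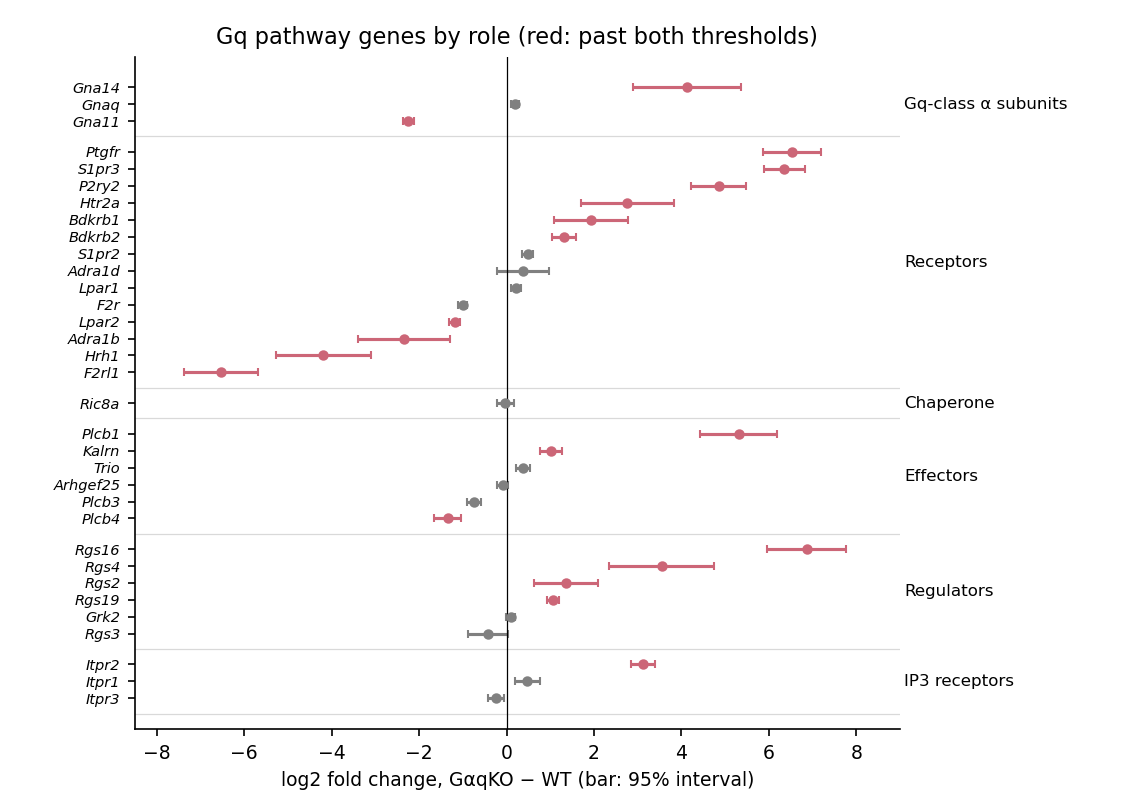
log2 difference between libraries labelled GαqKO and WT (x axis, with 95% intervals from limma) for the tested Gq-class genes and their partners, grouped by role. Red points passed both thresholds (adjusted p under 0.05 and a log2 difference over 1 or under -1). Red points lie on both sides of 0 among the Gq-class genes, the receptors and the effectors, and to the right of 0 among the regulators and IP3 receptors.

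To place the members among all genes, the profile of each was compared with that of 9327 or more genes averaging 100 or more normalized counts, by the root mean square (RMS) difference of centred log2 levels over the 6 libraries. Closest to Gna11 were Camk2b (RMS 0.0503, 7062 ± 161 to 1578.7 ± 95.8 normalized counts), Creld1 (0.0585) and Olfml2b (0.0638). Gnaq was closest to Gpat4 (0.0144), Rbbp6 (0.0181) and Wtap (0.0201). The nearest to Gna14 were Synpo2 (0.549), Hecw2 (0.589) and Pced1b (0.638), all further off than for the other members. Gna14 held 6.3, 0 and 3.1 normalized counts in WT, where counting error moves a log2 level more. The part of this in the larger distances was not tested. These likenesses rest mostly on the contrast between the lines, which all 6 libraries share.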

How the data were processed

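Total RNA of 3 WT and 3 GαqKO libraries of MEFs was sequenced as stranded mRNA libraries with paired 150-base reads, which the authors aligned to GRCm39 with Rbowtie2 and counted per gene with featureCounts. Tool versions and the strand setting of the counting are not given in the sources used here. The authors counted with an earlier GENCODE release than the one used here for symbols and exon lengths. The per-kb values thus divide those counts by exon lengths of the later release. The authors deposited normalized counts, a signal equal to gene counts divided by 1 size factor per library, with 30862 genes at 0 throughout. Groups came from the labels, and the study states that the 3 libraries of each group are biological replicates. The p-values measure only the spread between these libraries.

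Symbols, exons and coordinates came from GENCODE release M39, which matched 56310 of 56953 identifiers (643 were not matched). The main test was limma 3.58.1 in R 4.3.3 on log2(normalized count + 1), which understates changes of low genes, in all 6 libraries without covariates, the prior spread following a trend, and p-values were adjusted by Benjamini-Hochberg over 14096 genes that reached 10 normalized counts in 3 or more libraries. In 5 libraries 100% of nonzero values were whole multiples of 1 read, within 0.05 read. A check of the unit refused the reads of GαqKO replicate 3, so edgeR 4.0.16 and DESeq2 1.42.0 were run on the other 5 libraries as alternatives. The scripts were tested on simulated data. Shares and totals of the 4 genes, which have no test, used Python 3.11.15.

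Genes named are the 4 members, the nearest protein-coding genes (2 on each side of a pair), overlapping genes, the 3 genes most like each tested member, and list members past both thresholds. F2r, Trio, Plcb2, Plcb3, Rgs3, Ric8a, Arhgef25, Itpr1, Itpr3, Gna13 and the markers named were added after their values were seen. The members and lists were chosen with earlier results of these data known. The per-kb values of the canonical transcript were also added after seeing the data. Alternatives covered pseudocount, filter, scaling, prior spread, replicate block, count tests and dropping single libraries. The replicate numbers were checked for pairing, and libraries with the same number did not deviate together. Some items are not reported here.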

Additional observations from a re-analysis of the deposited data

How the results depend on the processing

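The log2 differences of Gnaq, Gna11 and Gna14 kept their direction and their side of both thresholds under every alternative that gave a value. Over these, Gnaq ranged from 0.18 to 0.22 (15 alternatives, adjusted p 0.00104 to 0.0197), Gna11 from -2.28 to -2.18 (15, 8.36e-145 to 6.02e-06) and Gna14 from 2.92, with a pseudocount of 5, to 4.75, without WT replicate 1 (14, 1.13e-07 to 0.00438). Under a filter of at least 10 normalized counts in every library Gna14 was no longer tested, so 1 member passed both thresholds instead of 2, and the genes past both thresholds were 831 higher and 765 lower against 1432 and 1486, since fewer genes were tested. Leaving out 1 library at a time gave Gnaq 0.18 to 0.21, Gna11 -2.28 to -2.20, Gna14 3.32 to 4.75, 1394 to 1447 genes higher and 1464 to 1506 lower.

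Per kb of merged exons and per kb of the canonical transcript, in that order, the Gna11 share was 67.3% and 71.5% in WT and 26.5% and 30.6% in the libraries labelled GαqKO, the Gnaq share 32.5% and 28.3% in WT and 69.3% and 65.6%, and the pool 703.2 and 870.8 in WT and 375.4 and 428.0. With 1 library left out, the WT Gna11 share was 55.4% to 56.4%, the Gnaq share 43.4% to 44.3% and the pool 3831 to 3858, and in the libraries labelled GαqKO 18.3% to 19.0%, 78.8% to 79.4% and 2406 to 2469. TMM scaling moved the median log2 difference of all genes from -0.012 to -0.003.

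Libraries with the same replicate number did not deviate together (r = -0.045, -0.148 and -0.064). Pairs with different numbers had r between -0.075 and 0.125. The deviations are from the mean of 3 libraries, so these r depend on each other, and a shared batch was not tested. With the replicate block 2 members passed both thresholds, with 1421 genes higher and 1478 lower, and the adjusted p was 0.00853 for Gnaq, 7.93e-10 for Gna11 and 4.32e-05 for Gna14. Without a filter Gna15 had a log2 difference of 0.30 (limma adjusted p = 0.751), and DESeq2 on 5 libraries gave -0.11 (adjusted p = 0.963). Depth limits Gna15, and Gna14 in WT, where 9 reads in 3 libraries carry the mean.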
